A study of Homo sapiens with 16 samples.

Results

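The RNA of 10 genes of the NF-κB transcription factor system was followed in P493-6 cells, a human B cell line. The 10 genes were fixed by name, with earlier results of these data known. They were the 5 Rel/NF-κB subunits NFKB1, NFKB2, RELA, RELB and REL, and the IκB inhibitors NFKBIA, NFKBIB and NFKBIE. The feedback inhibitor TNFAIP3 (A20) and BCL3, a nuclear IκB-like cofactor, completed the set. All 10 were found, each under 1 identifier, among the 58051 in the table, and all 10 passed the filter for testing (a mean normalized count of at least 10 over the 16 libraries, met by 13765 genes).

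P493-6 was made from B cells immortalised with Epstein-Barr virus. It carries a MYC transgene that doxycycline represses and a form of the viral protein EBNA2 that is active only with estrogen. Cells at high MYC grew in plain medium, and cells labelled medium MYC first received 0.1 µg/mL doxycycline together with 1 µM β-estradiol for 24 h. Each was then given either DMSO or 100 nM IMP1088 for a further 24 h, with 4 libraries in each of the 4 groups. IMP1088 blocks NMT1 and NMT2, the enzymes that attach myristate to proteins. The series asks how the response to that inhibitor depends on the MYC level. Because doxycycline and β-estradiol were added together and only to medium MYC cells, MYC level, doxycycline and estradiol cannot be told apart in any comparison of medium with high MYC. All libraries come from a single cell line. The labels do not say that replicates were separate cultures, so p-values measure the spread between these libraries, which may be technical.

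NF-κB proteins act as dimers of Rel-domain subunits. RELA, RELB and REL carry activation domains, whereas NFKB1 and NFKB2 encode the precursors p105 and p100, which are processed to the DNA-binding subunits p50 and p52. IκB proteins hold the dimers in the cytoplasm until the IKK kinases mark them for destruction. The classical pathway acts mainly through RELA, REL and p50, and the alternative pathway, driven by the kinase NIK, through RELB and p52. Several inhibitors, among them NFKBIA and TNFAIP3, are themselves NF-κB target genes and form negative feedback loops. In B cells NF-κB is known for survival signalling downstream of CD40, BAFF and the B cell receptor, and in cells transformed by Epstein-Barr virus it is kept active by the viral membrane protein LMP1.

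The promoters are shown because several of the 10 genes are known targets of NF-κB. Whether matches go with the size of a gene's difference between MYC levels was not tested. RefSeq promoter windows on GRCh38.p14 (250 bases before to 50 after an annotated start) were given for 8 of the 10 genes, not for RELB and NFKBIE. Each was searched on both strands for the κB consensus motif GGGRNWYYCC, and bases in capitals mark every match. Here R is A or G, N any base, W A or T, and Y C or T. Looser forms of the motif were not searched. A whole window is printed for the 3 genes that differed most between MYC levels and for RELA, the subunit gene that differed least.
NFKBIA promoter, chr14:35404700-35404999, minus strand: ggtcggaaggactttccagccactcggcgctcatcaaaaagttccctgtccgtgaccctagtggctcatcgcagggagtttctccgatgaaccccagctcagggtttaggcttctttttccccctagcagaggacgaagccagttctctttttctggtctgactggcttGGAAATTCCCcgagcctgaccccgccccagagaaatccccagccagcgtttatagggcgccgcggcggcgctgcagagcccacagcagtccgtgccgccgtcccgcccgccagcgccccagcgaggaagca
TNFAIP3 promoter, chr6:137867009-137867308, plus strand: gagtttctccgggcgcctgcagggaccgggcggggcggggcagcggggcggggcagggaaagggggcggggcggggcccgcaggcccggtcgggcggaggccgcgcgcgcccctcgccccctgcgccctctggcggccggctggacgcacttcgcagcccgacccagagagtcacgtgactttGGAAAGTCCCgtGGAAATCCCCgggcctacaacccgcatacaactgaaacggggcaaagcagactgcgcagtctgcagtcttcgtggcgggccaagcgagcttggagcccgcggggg
NFKB2 promoter, chr10:102394328-102394627, plus strand: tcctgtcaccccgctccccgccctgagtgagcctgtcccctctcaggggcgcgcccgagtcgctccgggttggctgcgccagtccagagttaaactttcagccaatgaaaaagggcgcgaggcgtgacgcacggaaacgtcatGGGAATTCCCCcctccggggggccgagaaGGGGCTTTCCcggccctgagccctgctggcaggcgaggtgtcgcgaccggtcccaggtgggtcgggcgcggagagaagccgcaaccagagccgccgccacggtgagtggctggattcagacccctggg
RELA promoter, chr11:65662867-65663166, minus strand: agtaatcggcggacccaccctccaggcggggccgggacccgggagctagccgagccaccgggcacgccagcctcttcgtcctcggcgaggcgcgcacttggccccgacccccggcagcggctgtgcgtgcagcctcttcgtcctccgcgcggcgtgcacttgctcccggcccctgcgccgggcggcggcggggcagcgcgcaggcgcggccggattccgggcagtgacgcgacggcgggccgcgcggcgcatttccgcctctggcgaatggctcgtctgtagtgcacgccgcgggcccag
The κB match in NFKBIA began 81 bases before the start. TNFAIP3 held a pair of matches on the opposite strand, 67 and 55 bases before the start. NFKB2 had 3 windows, and the window printed held the most matches. These lay 107 and 106 bases before the start, overlapping with a shift of 1 base, and 78 bases before it. Of the NFKB2 windows not printed, the first held 0 matches. The other held matches 176 and 21 bases before its own start. Neither of the 2 RELA windows held a match, which says only that these letters are not in the windows searched.

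For the other 4 genes with a window that held a match, the 30 bases around it are printed.
NFKB1 κB match, chr4:102501300-102501329, plus strand: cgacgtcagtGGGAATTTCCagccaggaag
REL κB match, chr2:60881517-60881546, plus strand: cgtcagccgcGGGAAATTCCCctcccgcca
NFKBIB κB match, chr19:38899931-38899960, plus strand: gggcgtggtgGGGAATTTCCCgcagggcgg
BCL3 κB match, chr19:44748700-44748729, plus strand: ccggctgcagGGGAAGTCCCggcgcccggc
In REL and NFKBIB the capitals join matches on opposite strands that are shifted by 1 base. In all, 7 of the 8 member genes with a window held a match in at least 1 window, against 7.09% of all 27305 genes with a window. By window the counts were 8 of 13, against 5.91% of 35116. Among the other NF-κB target genes listed below, 7 of 23 with a window held one. NFKBIB, which fell where the other members rose, also held a match. A match is a description of the sequence, not evidence of binding, which was not measured.

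Library depth lay between 8755296 and 13858534 reads, recovered from the deposited normalized counts. MYC itself read 31649 ± 2130 normalized counts (SD, n = 4) at high MYC in DMSO, 47542 ± 505 at high MYC with IMP1088, 959 ± 48.7 at medium MYC in DMSO and 1382 ± 51.2 at medium MYC with IMP1088, so every library labelled high MYC lay above every library labelled medium MYC. The 7 B cell markers reported, among them MS4A1, PAX5 and CD79A, were above 0 in every group. They summed to 39928 to 42283 at high MYC in DMSO, 33693 to 34884 with IMP1088, 61391 to 65311 at medium MYC in DMSO and 55571 to 57185 with IMP1088, and from high to medium MYC in DMSO 5 were higher and 2 lower. The summed T cell markers stayed between 43.1 and 95.4, the monocyte markers between 41.4 and 84.4 and the erythroid markers between 0 and 11.5. The 5 epithelial or fibroblast markers summed to 65.9 to 94.6 at high and 177 to 238 at medium MYC, most of the difference being COL1A1 (7.09 ± 2.35 against 164 ± 9.24 in DMSO). Their part in the results was not tested. Values are relative to the rest of each library, so fewer cells of a kind and less RNA per cell cannot be told apart.

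**Figure D1:**
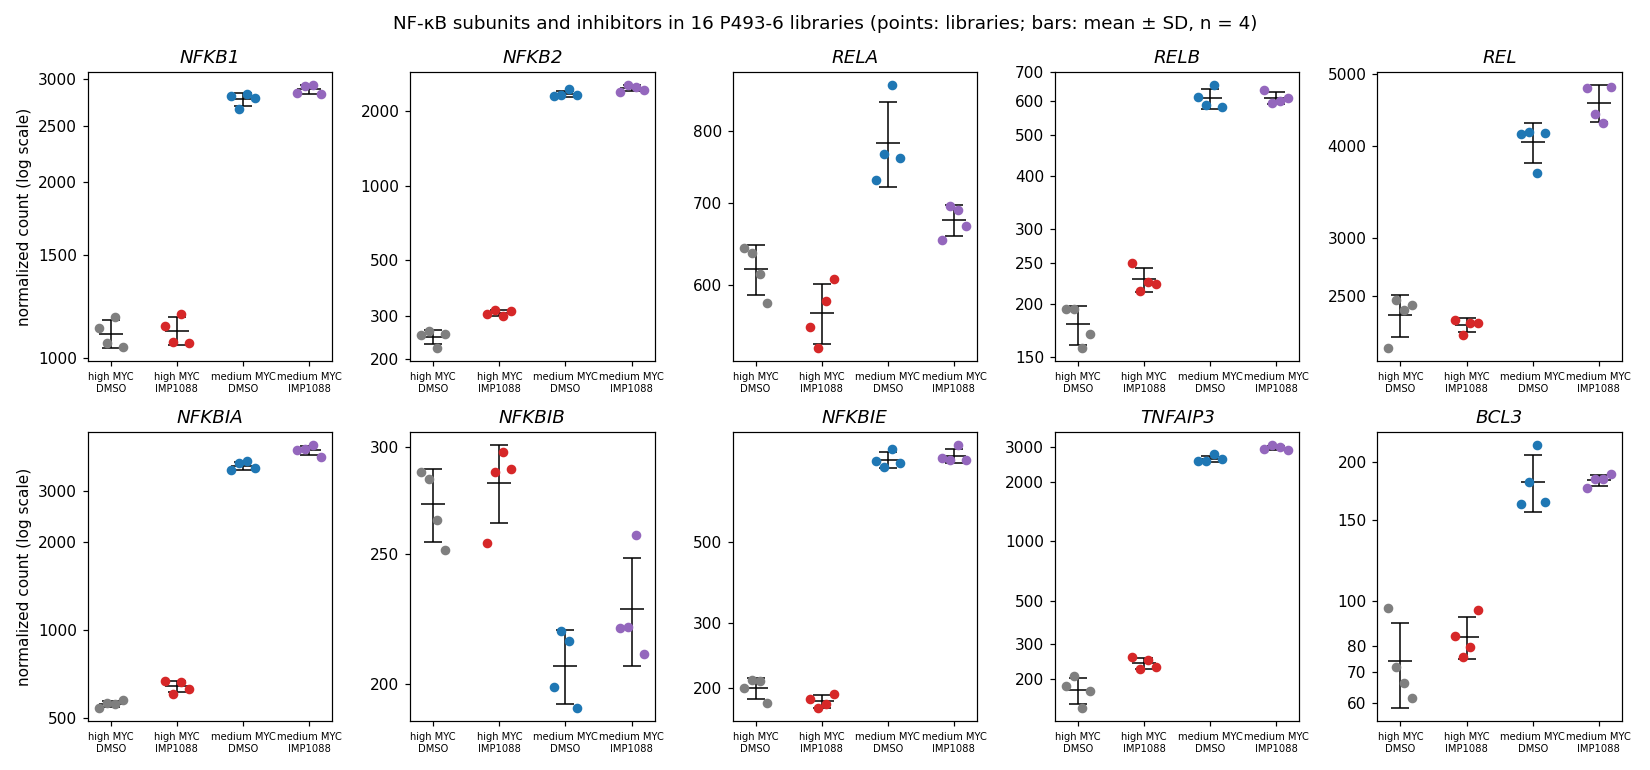
Normalized count (log axis, own range in each panel, not starting at 0) of the 10 NF-κB genes in each of the 16 libraries; points are libraries, bars the mean ± SD of 4. In 9 genes both medium MYC groups lie above both high MYC groups. NFKBIB lies the other way, with its inhibitor-treated groups overlapping. Of all tested genes, 69.2% had MYC groups that did not overlap in DMSO and 72.6% under IMP1088.

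Between MYC levels all 10 genes differed, 9 rising and 1 falling from high to medium MYC. In DMSO, TNFAIP3 was 14.8-fold, NFKB2 9.53-fold and NFKBIA 6.58-fold higher at medium MYC, and NFKBIE 4.15-fold higher. RELA differed least among the subunits, at 1.26-fold, and NFKBIB fell. The count of 10 called stands beside a background of 76.2% of all tested genes called in the same comparison (38.9% higher and 37.3% lower), so the count itself is close to what most genes did. The sizes differ more: the median size of the log2 difference was 1.55 over the members against 0.50 over all genes. The signed medians were 1.55 and 0.02. As the members were chosen with earlier results known, these medians are descriptions and no independent evidence of a direction. Under IMP1088 the same 9 genes were higher and the same 1 lower at medium MYC, with 77.5% of all genes called (39.7% higher and 37.8% lower). The MYC groups did not overlap for 10 of the 10 members in DMSO, against 69.2% of all genes. Under IMP1088 they did not overlap for 9 of 10, against 72.6%, so separation too was common among all genes.

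Of the precursor genes, NFKB2 read 249, 259, 222 and 254 normalized counts in the 4 high MYC DMSO libraries and 2310.4, 2324, 2449 and 2317 in the medium MYC DMSO libraries. The groups were far apart, and the log2 difference was 3.25 ± 0.04 (SE; limma, adjusted p = 2e-23). NFKB1, which encodes p105 and p50, read 1126, 1061, 1178 and 1045 at high and 2805, 2668, 2835 and 2788 at medium MYC. Its difference of 1.33 ± 0.04 on the log2 scale (adjusted p = 1.02e-17) was less than that of NFKB2, although both encode precursors.

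Of the subunits with activation domains, RELB, the partner of p52, read 195, 195, 158 and 169.9 at high and 611, 588, 654 and 580.2 at medium MYC. All medium libraries lay above all high ones, by 1.76 ± 0.07 on the log2 scale (adjusted p = 6.19e-16). REL, the c-Rel subunit that is prominent in lymphocytes, read 2125, 2465, 2395 and 2429 at high and 4147, 4175, 3667 and 4163 at medium MYC, a log2 difference of 0.78 ± 0.05 (adjusted p = 2.69e-12). REL values are uncertain in that 43.3% of its exon bases also lie in AC010733.2, a non-coding gene on the same strand. RELA, the main activating subunit of the classical pathway, read 643, 637, 613 and 580.1 at high and 730.2, 767, 873 and 762 at medium MYC. Its groups also did not overlap, but the log2 difference was only 0.34 ± 0.05 (adjusted p = 7.05e-06).

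Of the inhibitors, NFKBIA, which encodes IκBα, read 539, 560.4, 555 and 573 at high and 3544, 3749.8, 3793 and 3598 at medium MYC, a log2 difference of 2.72 ± 0.04 (adjusted p = 2.89e-23). NFKBIE, which encodes IκBε, read 200.3, 210.0, 209.7 and 182 at high and 829, 797, 894 and 821 at medium MYC, a log2 difference of 2.05 ± 0.06 (adjusted p = 1.27e-18). NFKBIB, which encodes IκBβ, went the other way and was the only member lower at medium MYC. It read 288, 284, 265 and 251 at high and 199, 219, 215 and 192 at medium MYC, a log2 difference of -0.40 ± 0.07 (adjusted p = 5.57e-05). Under IMP1088 its difference was -0.31 ± 0.07 (adjusted p = 0.000677), with 1 medium library at 258 and 1 high library at 255, so those groups overlapped.

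TNFAIP3, the ubiquitin-editing enzyme A20 that shuts off signalling upstream of IKK, read 184, 207, 142 and 174 at high and 2555, 2556, 2755 and 2592 at medium MYC. This was the largest difference among the 10 genes, 3.89 ± 0.07 on the log2 scale (adjusted p = 3.36e-21). BCL3, which joins p50 or p52 dimers in the nucleus, was the least abundant member, with 96.4, 71.9, 66.2 and 61.5 at high and 163, 181, 218 and 164 at medium MYC. Its log2 difference was 1.29 ± 0.12 (adjusted p = 3.47e-09), and its SE was the widest of the 10.

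The order of the genes changed with them. Per kilobase of exon, NFKBIA was the most abundant member in high MYC DMSO cells at 235 ± 6.08 normalized counts per kb, followed by REL at 179 ± 11.8 and NFKB1 at 176 ± 9.77, whose libraries overlapped. NFKBIB at 117 ± 7.31 and RELA at 113 ± 5.24 overlapped as well, NFKBIE stood at 77.7 ± 5.06, and RELB at 59.2 ± 6.19 overlapped with NFKB2 at 54.9 ± 3.72. TNFAIP3 at 35.0 ± 5.28 and BCL3 at 22.8 ± 4.79 came last, with overlapping libraries. At medium MYC in DMSO, NFKBIA again led at 1547 ± 50.2 per kb, now followed by NFKB2 at 524 ± 14.7 and TNFAIP3 at 518 ± 18.9, which overlapped, and NFKB1 at 443 ± 11.8. NFKBIE at 324 ± 16.1 and REL at 307 ± 18.8 overlapped, with RELB at 200 ± 10.9, RELA at 143 ± 11.3, NFKBIB at 88.8 ± 5.56 and BCL3 at 56.0 ± 7.92 below them. NFKB2 and TNFAIP3 thus moved from the lower end of the order to the places after NFKBIA. The lengths count all annotated exon bases of a gene. For REL these are 13170, of which 43.3% also lie in AC010733.2, so its place in the order is uncertain.

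As shares of the summed per-kilobase level of the 5 subunits, a description chosen after the values were seen, NFKB2 made up 9.43% ± 0.649 (SD, n = 4) in high MYC DMSO cells and 32.4% ± 0.487 in medium MYC DMSO cells. RELA went from 19.4% ± 0.717 to 8.85% ± 0.583 and REL from 30.7% ± 1.95 to 19.0% ± 1.42, while NFKB1 (30.3% ± 1.71 and 27.4% ± 0.483) and RELB (10.2% ± 0.999 and 12.4% ± 0.497) kept more similar shares. RELA had a smaller share although its level was higher, because the sum itself went from 582 ± 10.6 to 1618 ± 24.5 per kb. Among the 3 IκB genes, NFKBIA went from 54.7% ± 1.97 to 79.0% ± 0.558 of the sum, and NFKBIB from 27.2% ± 1.39 to 4.53% ± 0.182. These are RNA shares and say nothing of protein or dimer composition. The subunit shares depend on the exon lengths used. They also depend on how reads shared by REL and AC010733.2 were assigned, which is not known.

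**Figure D2:**
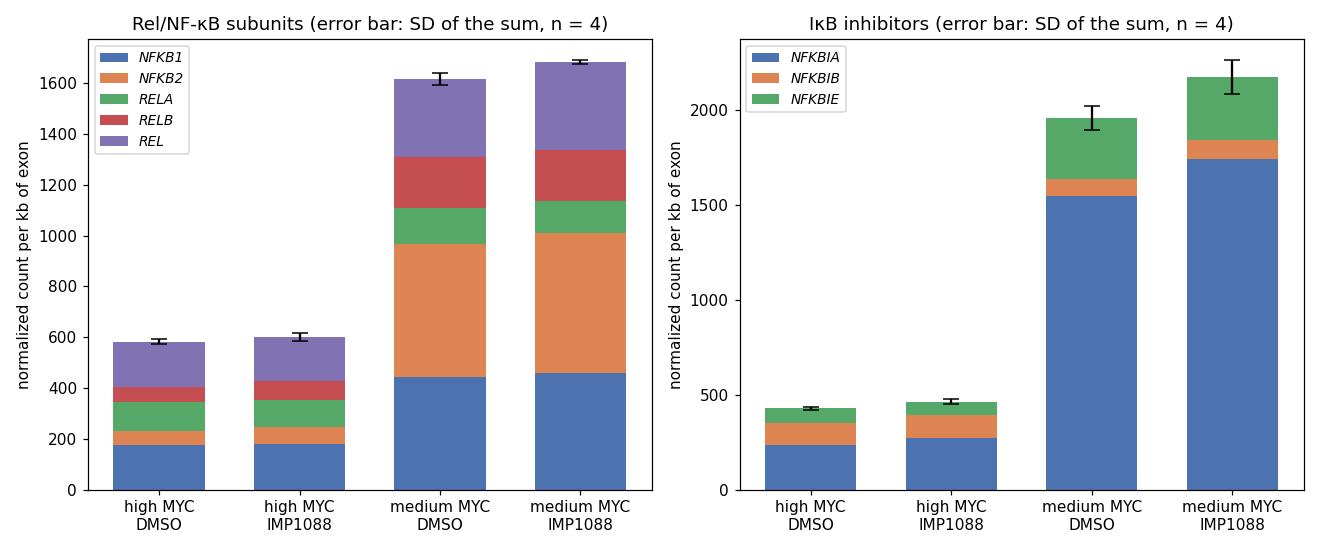
Stacked mean normalized count per kb of exon for the 5 subunit genes and the 3 IκB genes in the 4 groups; error bars are the SD of the sum over 4 libraries. The subunit sum was 582 in high and 1618 in medium MYC DMSO cells, with NFKB2 9.43% and 32.4% of it. The sum includes REL, whose exons partly overlap another gene.

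With IMP1088 most of the 10 genes changed by less than they differed between the medium and high MYC groups; for RELA the sizes were closer (-0.20 with IMP1088 at medium MYC and 0.25 between MYC levels under IMP1088). At high MYC, TNFAIP3, RELB, NFKB2 and NFKBIA rose, by 1.37-fold, 1.27-fold, 1.25-fold and 1.15-fold, and none fell with limma, although under a GC correction added later REL was called lower there (-0.09, adjusted p = 0.0489). At medium MYC, NFKBIA and REL rose by 1.13-fold each, and RELA fell. At high MYC 26.8% of all tested genes were called (10.5% higher and 16.3% lower), and at medium MYC 26.3% (11.7% higher and 14.6% lower). The 4 of 10 called at high MYC and the 3 of 10 at medium MYC are thus near the background for either direction. At high MYC 4 of 10 were higher, against 10.5%, but as the members were chosen with earlier results known, nothing is read from that contrast. The median size of the members' log2 change was 0.15 at high and 0.10 at medium MYC, against 0.13 and 0.14 over all genes.

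TNFAIP3 read 184, 207, 142 and 174 in high MYC DMSO libraries and 259, 224, 249 and 231 with IMP1088, a log2 change of 0.45 ± 0.07 (limma, adjusted p = 8.72e-05). At medium MYC it read 2555, 2556, 2755 and 2592 in DMSO and 2914, 3055, 2997 and 2903 with IMP1088, so all 4 treated libraries lay above all 4 controls. That log2 change of 0.18 ± 0.07 did not pass in the main limma fit (adjusted p = 0.0766), whose spread is shared by all 4 groups. The SD of TNFAIP3 was 15.1% of its mean in high MYC DMSO libraries. At medium MYC it was 3.64% in DMSO and 2.42% with IMP1088. Fitted on the medium MYC groups only, limma called the change (adjusted p = 0.000797). On the recovered reads edgeR (adjusted p = 0.00116) and DESeq2 (adjusted p = 9.34e-05) called it too. In all, 6 of 22 alternatives called it and 16 did not.

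NFKB2 rose from 249, 259, 222 and 254 to 303, 316, 298 and 312 at high MYC, without overlap (log2 change 0.32 ± 0.04, adjusted p = 1.08e-05). At medium MYC it read 2310.4, 2324, 2449 and 2317 in DMSO and 2395, 2547, 2512 and 2433 with IMP1088, where the groups overlapped (0.07 ± 0.04, adjusted p = 0.251). RELB, the other gene of the alternative pathway pair, showed the same arrangement. It rose from 195, 195, 158 and 169.9 to 251, 215, 225 and 223 at high MYC (0.35 ± 0.07, adjusted p = 0.000519). At medium MYC it read 611, 588, 654 and 580.2 in DMSO and 636, 592, 598 and 608 with IMP1088 (0.00 ± 0.07, adjusted p = 0.989), with the treated libraries inside the range of the controls.

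NFKBIA was the only member called at both MYC levels in the main limma fit. Other fits called further members at both levels. These were TNFAIP3 with edgeR, DESeq2 and some other limma settings, and NFKB2 and REL under the GC correction, REL in opposite directions. NFKBIA rose from 539, 560.4, 555 and 573 to 668, 605, 661 and 629 at high MYC (0.20 ± 0.04, limma, adjusted p = 0.000405). At medium MYC it rose from 3544, 3749.8, 3793 and 3598 to 4138, 4187, 4310.5 and 3923 (0.17 ± 0.04, adjusted p = 0.00154). Every treated library lay above every control library at both levels.

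REL read 2125, 2465, 2395 and 2429 in high MYC DMSO libraries and 2323, 2211, 2300.4 and 2296 with IMP1088, which overlapped (-0.04 ± 0.05, adjusted p = 0.579). At medium MYC it rose from 4147, 4175, 3667 and 4163 to 4784, 4413, 4286 and 4802 (0.18 ± 0.05, adjusted p = 0.00816), and all treated libraries lay above all controls. RELA was the member that fell. It went from 730.2, 767, 873 and 762 to 654, 696, 690.4 and 671 at medium MYC (-0.20 ± 0.05, adjusted p = 0.00634), without overlap, and from 643, 637, 613 and 580.1 to 555, 534, 582 and 607 at high MYC, where the change of -0.12 ± 0.05 did not pass (adjusted p = 0.109).

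The other 4 members passed the test at neither level. NFKB1 read 1138, 1065, 1192 and 1063 with IMP1088 at high MYC (log2 change 0.02 ± 0.04, adjusted p = 0.822), close to its controls. At medium MYC it read 2844, 2925, 2929 and 2836, just above all controls (0.06 ± 0.04, adjusted p = 0.35). NFKBIB read 255, 287, 298 and 289 at high MYC (0.05 ± 0.07, adjusted p = 0.659) and 220.2, 221, 258 and 211 at medium MYC (0.14 ± 0.07, adjusted p = 0.194). In both cases the treated and control libraries overlapped. NFKBIE read 187, 176, 181 and 193 with IMP1088 at high MYC (-0.12 ± 0.06, adjusted p = 0.122) and 847, 832, 915 and 835 at medium MYC (0.04 ± 0.06, adjusted p = 0.677). BCL3 read 83.9, 75.4, 79.4 and 95.6 at high MYC (0.19 ± 0.12, adjusted p = 0.281) and 176, 184, 184 and 189 at medium MYC (0.02 ± 0.12, adjusted p = 0.928). Some of these outcomes depended on 1 control library or on the processing. Without high MYC DMSO replicate 1, limma called BCL3 at high MYC (0.32, adjusted p = 0.0387). With all libraries kept, BCL3 was also called there under the GC correction added later (0.27, limma, adjusted p = 0.0451). Without high MYC DMSO replicate 4, NFKBIE was called at high MYC (-0.16, limma, adjusted p = 0.0332). Counting groups that did not overlap, 4 of 10 members were separated at high MYC (26.7% of all genes) and 5 of 10 at medium MYC (27.9%).

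**Figure D3:**
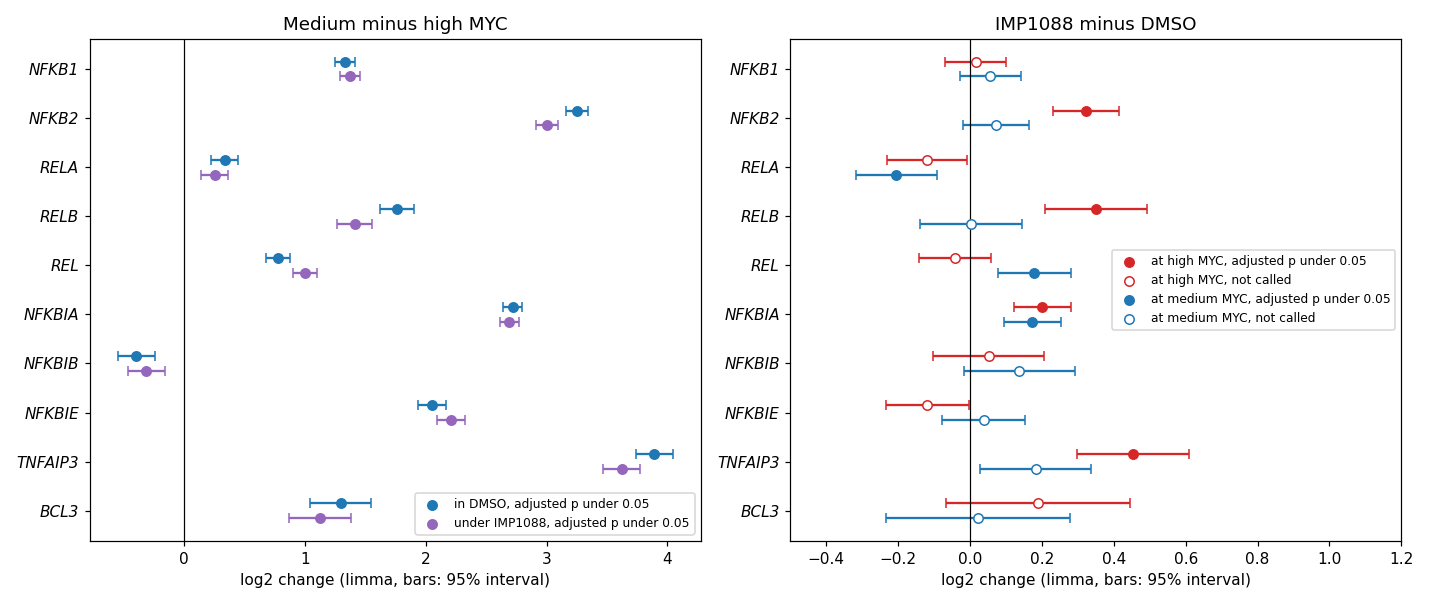
Log2 change of each gene with its unadjusted 95% interval (limma), medium minus high MYC on the left and IMP1088 minus DMSO on the right, on different axes; filled points passed an adjusted p of 0.05. All 10 genes passed on the left; on the right TNFAIP3, RELB, NFKB2 and NFKBIA passed at high MYC and NFKBIA, REL and RELA at medium MYC.

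The difference between the responses to IMP1088 at the MYC levels was tested directly. It passed for 3 members, 1 with a larger response at medium MYC and 2 with a smaller one, against 8.63% of all genes (5.33% and 3.31%). NFKB2 responded less at medium MYC, by -0.25 ± 0.06 on the log2 scale (adjusted p = 0.0133), and so did RELB, by -0.35 ± 0.10 (adjusted p = 0.0247). REL responded more, by 0.22 ± 0.07 (adjusted p = 0.049). The RELB difference was lost without high MYC DMSO replicate 4 (adjusted p = 0.0513), high MYC IMP1088 replicate 1 (0.0587) or medium MYC IMP1088 replicate 2 (0.0522). The REL difference kept a similar size over 29 alternatives (0.18 to 0.27) but lost the call under 18 of them, where adjusted p ran from 0.0501 to 0.135. For TNFAIP3 the difference of -0.27 ± 0.11 did not pass with limma (adjusted p = 0.128). Its 95% interval ran from -0.49 to -0.05 before adjustment, and it was called by DESeq2 (adjusted p = 0.0471) and, with limma, without high MYC DMSO replicate 2 (adjusted p = 0.0209). For NFKBIA the difference was -0.03, with an interval from -0.14 to 0.08.

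The surrounding pathway was read from 6 lists of genes, counted in the plot of calls by list. The lists were chosen with earlier results of these data known, so their counts are descriptions and no independent evidence of a direction. Each is read against all tested genes: 38.9% were higher and 37.3% lower at medium than at high MYC in DMSO, 10.5% rose and 16.3% fell with IMP1088 at high MYC, and 11.7% rose and 14.6% fell at medium MYC. Among 8 other IκB-like inhibitors and cofactors, 5 were higher and 2 lower at medium than at high MYC in DMSO, a called share near the 76.2% of all genes. NFKBIZ, an inducible nuclear IκB, differed most of those (139.8 ± 14.7 against 2330 ± 80.3, log2 difference 4.05, adjusted p = 3.57e-23). With IMP1088, 1 of the 8 was called at each MYC level, and it was NFKBID, another nuclear IκB (2 were called at medium MYC without medium MYC DMSO replicate 3). NFKBID rose from 147 ± 14.3 to 259 ± 15.1 at high MYC (log2 change 0.82, adjusted p = 3.85e-08) and from 254 ± 21.7 to 375 ± 13.1 at medium MYC (0.56, adjusted p = 5.75e-06), more than any of the 10 members.

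Among 12 genes of the IKK and TAK1 kinase complexes and NIK, 8 were higher and 2 lower at medium MYC in DMSO, against 76.2% of all genes called. MAP3K14, which encodes NIK, the kinase that drives p100 processing, went from 503 ± 30.8 to 949 ± 42.4 (0.91, adjusted p = 6.19e-14), and MAP3K8, a kinase held by p105, from 52.1 ± 5.75 to 510 ± 26.6 (3.27, adjusted p = 6.9e-18). With IMP1088, 1 rose and 1 fell at high MYC, and 1 rose and 4 fell at medium MYC. These counts rest on single libraries: the 2 called at high MYC became 4 without high MYC DMSO replicate 3, and 1 without high MYC DMSO replicate 4 or high MYC IMP1088 replicate 2. The 5 called at medium MYC became 3 without medium MYC IMP1088 replicate 1 or 3. IKBKE, an IKK-related kinase, fell at medium MYC from 332 ± 11.8 to 227 ± 21.8 (-0.55, adjusted p = 9.48e-07), and its response differed between MYC levels (-0.40, adjusted p = 0.00612).

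Of 13 receptor genes tested (14 listed), 1 rose and 8 fell with IMP1088 at high MYC, 5 fell at medium MYC, and 7 were higher and 5 lower at medium than at high MYC in DMSO. The falls compare with 16.3% of all genes at high and 14.6% at medium MYC. Of the 7 B cell markers, 6 also fell at high and 4 at medium MYC and none rose (median log2 change -0.24 and -0.13), and their part in the receptor changes was not tested. TLR10, a Toll-like receptor of B cells, fell from 1650 ± 40.1 to 848 ± 37.0 at high MYC (-0.96, adjusted p = 4.86e-13) and from 3550 ± 97.5 to 3074 ± 203 at medium MYC (-0.21, adjusted p = 0.000544), and the responses differed (0.75, adjusted p = 1.59e-08). CD40, the co-stimulatory receptor that signals through both pathways, went from 252 ± 13.2 at high to 1221 ± 10.1 at medium MYC (2.28, adjusted p = 8.92e-21).

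Among 11 adaptor genes of the TNF and Toll-like receptors, 1 rose and 2 fell with IMP1088 at high MYC, 2 fell at medium MYC, and 8 were higher and 1 lower at medium MYC in DMSO. The shares called with IMP1088 were near or below the 26.8% and 26.3% of all genes. BIRC3, the ubiquitin ligase cIAP2 and itself an NF-κB target, rose from 457 ± 75.3 to 732 ± 6.86 at high MYC (0.69, adjusted p = 1.95e-06) and read 2876 ± 261 and 3051 ± 194 at medium MYC. Its response was smaller at medium MYC (-0.61, adjusted p = 0.00179), the same direction as for NFKB2 and RELB. MYD88, the Toll-like receptor adaptor, fell at both levels (-0.40 and -0.36, adjusted p = 3.7e-06 and 1.28e-05).

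Of 12 genes tested for linear ubiquitin ligases, deubiquitinases and A20 partners (13 listed), 11 were higher and 1 lower at medium MYC in DMSO, against 38.9% and 37.3% of all genes. CYLD, a deubiquitinase that like A20 restrains IKK, went from 133 ± 16.8 to 1153 ± 98.8 (3.11, adjusted p = 2.24e-19), and TNIP2, an A20-binding inhibitor, from 206 ± 14.95 to 618 ± 35.4 (1.58, adjusted p = 4.11e-15). With IMP1088, 1 rose and 2 fell at high MYC, and 3 rose and 3 fell at medium MYC. The 6 called at medium MYC became 2 without medium MYC DMSO replicate 3, and 3 without medium MYC IMP1088 replicate 1 or 4. TNIP2 fell at high MYC by 0.39 on the log2 scale (adjusted p = 0.00016), where TNFAIP3 rose. RBCK1, a subunit of the linear ubiquitin ligase, fell at both levels (-0.37 and -0.31, adjusted p = 2.6e-05 and 0.000167).

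Of the other NF-κB target genes, 26 of 27 listed were matched and tested. All 26 were higher at medium MYC in DMSO and again under IMP1088, against 38.9% and 39.7% of all genes, with a median log2 difference of 3.31 in DMSO; as the list was chosen with earlier results known, nothing is read from that contrast. With IMP1088, 8 rose, 5 fell and 13 were not called at high MYC (10.5% and 16.3% of all genes rose and fell), and 9 rose, 1 fell and 16 were not called at medium MYC (11.7% and 14.6%). GADD45B, a stress-response gene, rose at both levels, from 252 ± 21.0 to 414 ± 24.4 (0.72, adjusted p = 1.48e-08) and from 804 ± 57.9 to 1216 ± 43.8 (0.60, adjusted p = 1.6e-07). CD83, a surface marker of activated B cells, rose from 71.3 ± 6.31 to 108 ± 13.4 at high MYC (0.59, adjusted p = 3.1e-06). TRAF1, an adaptor, fell at high MYC from 391 ± 24.5 to 262 ± 11.4 (-0.58, adjusted p = 1e-09), opposite to TNFAIP3. CFLAR, the anti-apoptotic c-FLIP, fell at high MYC from 304 ± 13.8 to 268 ± 11.7 and rose at medium MYC from 2392 ± 7.03 to 3277 ± 70.6, and the responses differed by 0.63 (adjusted p = 8.05e-08).

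**Figure D4:**
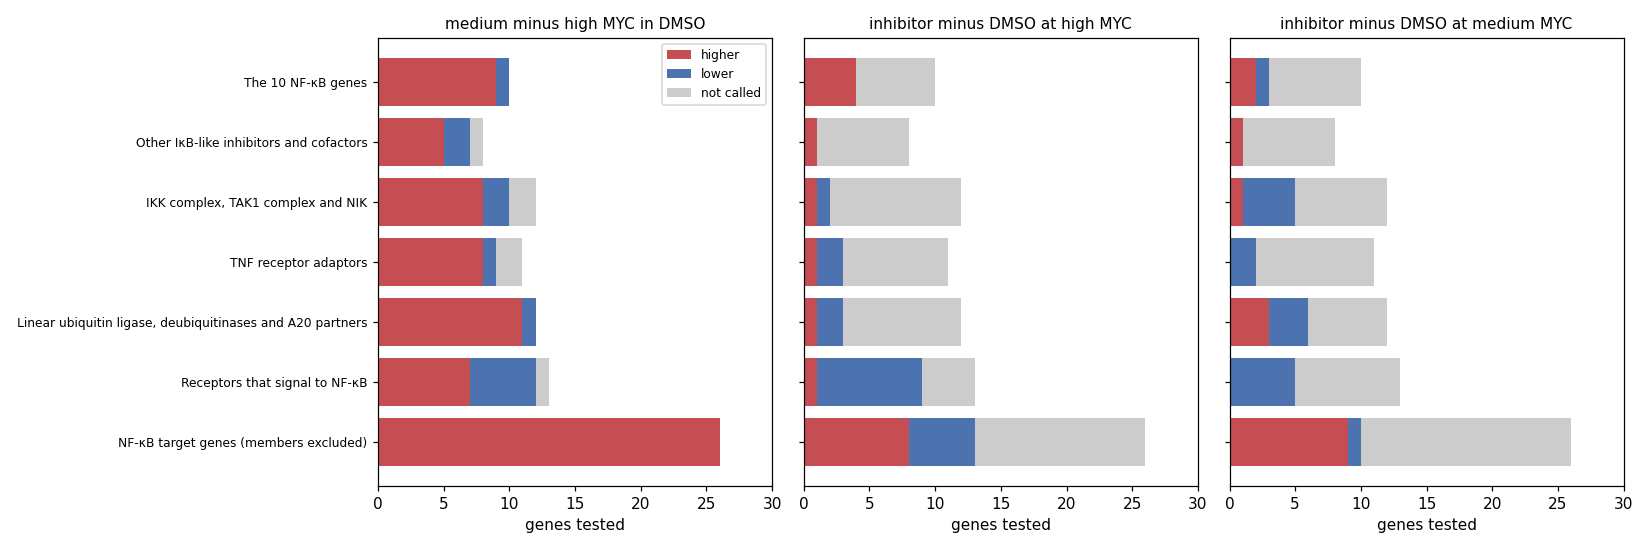
Number of genes tested in each list (bar length) that were higher, lower or not called at an adjusted p of 0.05, in 3 comparisons, with the 10 NF-κB genes at the top. All 26 target genes were higher at medium MYC in DMSO; with IMP1088 the receptor list shows 8 lower genes at high and 5 at medium MYC.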

How the data were processed

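RNA-seq values came as a single table with 58051 Ensembl identifiers in rows and 16 libraries in columns. The authors deposited normalized counts, a non-negative expression signal per gene. Per the submitters' processing notes STAR 2.5.2a, RSEM 1.2.31, DESeq2 1.16.1 and GRCh38 were named, with no role given, and the annotation and strand setting are not given in the sources used here. Dividing by the step of its library turned 100% of the values into whole numbers within 1e-06, so reads were recovered (8755296 to 13858534 per library, size factors 0.858 to 1.33). Depth sets counting error only. No replicate pair was identical or within sampling noise (chi-square per degree of freedom 1.72 to 10.7).

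Symbols were matched for 56948 identifiers, and lengths and overlaps come from GENCODE 29. The test was limma 3.58.1 (R 4.3.3) on log2(value + 1), so fold changes are on that scale and understate changes of low genes. Genes entered at a mean of 10 or more (13765 genes). The fit had 4 group means for all 16 libraries and a mean trend, so the groups share the spread estimated for a gene. It was two-sided, with Benjamini-Hochberg adjustment over all genes and calls at an adjusted p under 0.05. The fit was also run on simulated counts with the same dispersion set for every gene. These data differ from that setting, and nothing is drawn from the simulation here. Alternatives used edgeR 4.0.16 and DESeq2 1.42.0 on recovered reads, other scalings, pseudocounts (0.1 and 10), filters, replicate blocks, and fits without 1 library; GC corrections were chosen after seeing the data.

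The members and lists were chosen with earlier results of these data known. All 10 members are named; from each list, up to 3 called genes higher and 3 lower with the largest change and a mean of at least 50 could be named, and not all are printed. MYC was named to check the labels. Protein sequences were not used here. Per-kilobase levels and motif counts are descriptions without tests. A pathway list and a B cell marker are not reported here.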

Additional observations from a re-analysis of the deposited data

Results flagged for a closer look

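In 40 groups of 4 libraries (10 genes by 4 groups), 2 had a library far from the other 3, and chance alone flags about 1 in 20. Both were in replicate 3 of medium MYC DMSO. For NFKB2 that library read 2449, with the others between 2310.4 and 2324, and the gap was 0.9052 of the group's range. For REL it read 3667, with the others between 4147 and 4175, a gap of 0.9448 of the range. Without it, NFKB2 changed by 0.09 with IMP1088 at medium MYC (limma, adjusted p = 0.176) and its responses still differed (-0.23, adjusted p = 0.025). REL rose by 0.13 (adjusted p = 0.0339), and its responses no longer differed past the threshold (0.18, adjusted p = 0.0768).

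The response to IMP1088 differed between MYC levels for 3 genes. NFKB2 changed by 0.32 at high and 0.07 at medium MYC, a difference of -0.2493. RELB changed by 0.35 and 0.00, a difference of -0.3486. REL changed by -0.04 and 0.18, a difference of 0.221. The cause of these differences was not tested.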

How the results depend on the processing

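Over 50 results for the members, 1170 values were computed under alternatives: 1133 kept their call status, 21 lost the call and 16 gained it. Where either fit called the gene, 0 reversed direction. Small uncalled changes could switch sign: NFKB1 with IMP1088 at high MYC went from 0.016 to as low as -0.017. All 10 members stayed called between MYC levels under every alternative run. The number of members called with IMP1088 at medium MYC went from 3 to 6 under the GC correction and to 5 under the GC correction with the replicate block; the genes gained included NFKB2 (0.17, adjusted p = 0.00121) and NFKBIB (0.23, adjusted p = 0.0126). Leaving out 1 library at a time gave 1 to 3 members whose responses differed. Under quantile normalization, 1727 genes were higher and 1770 lower with IMP1088 at high MYC, against 1442 and 2247. Libraries with the same replicate number shared little deviation on average (mean correlation -0.0715 to 0.0243 by comparison). Single replicate numbers ran from -0.154 to 0.239, and these averages cannot settle whether libraries were paired. With the replicate block, 3496, 3442, 10256, 10469 and 1026 genes were called in the 5 comparisons, and 4, 3, 10, 10 and 3 members. The comparisons were, in order, IMP1088 at high and medium MYC, MYC level in DMSO and under IMP1088, and the difference of responses. With IMP1088 at high MYC, 6 members were called under the GC correction (4 without it), and leaving out 1 library gave 1 to 4 kinase genes (2). With IMP1088 at medium MYC, the alternatives called 7 to 16 of the target genes (10), 3 to 6 of the kinase genes (5) and 3 to 7 of the ubiquitin genes (6), and leaving out 1 library gave 7 to 8, 3 to 4 and 2 to 6. Depth limits BCL3 most, with 55 to 128 reads in high MYC DMSO libraries.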
